A study of Mus musculus with 6 samples.

Results

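Transcripts that mark the nervous system of the gut wall were compared between intestines of mice lacking SHP and of wild-type mice. The list held 32 genes, namely 26 of enteric neurons, 4 of enteric glia and 2 of interstitial cells of Cajal (ICC). A gene was kept when its counts summed over all 6 libraries reached 10, which left 30 of the 32 and 30 of the 23284 genes in the count files. Kept were 24 neuron, 4 glia and 2 ICC genes. Nefl, a neurofilament subunit, had 3, 2 and 2 counts in SHP-KO libraries and 0, 2 and 0 in WT libraries. Nos1, the neuronal nitric oxide synthase, had 3, 2 and 0 counts in SHP-KO and none in WT. Both stayed under the minimum and are not described further. Map1b is listed in the files under its older symbol Mtap1b, a synonym in RefSeq's gene table.

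The SHP-KO group had 3 libraries and the wild-type (WT) group 3. All mice were males aged 8 weeks, fasted overnight and then refed for 6 h, and RNA came from jejunum and ileum together. SHP, the product of Nr0b2, is an orphan nuclear receptor that represses transcription through other factors. The labels give neither the allele design nor the strain, nor the share of jejunum and ileum in a sample, nor whether each library came from 1 animal, so p-values measure only how these libraries vary, and that variation may be technical. Total counts ran from 7956528 to 9289543 in SHP-KO libraries and from 11265437 to 13511800 in WT libraries. Nr0b2 had 1, 0 and 0 counts in SHP-KO and 31, 14 and 23 in WT, as the labels state. Levels are given as CPM (counts scaled to library size) with TMM factors, a method that corrects for differences in library composition.

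The enteric nervous system lies in plexuses within and beneath the muscle layers of the gut wall. Its neurons and glia descend from the neural crest. They drive and coordinate muscle contraction, secretion and local blood flow. ICC are mesenchymal cells beside the muscle that generate the electrical slow waves pacing it, and Kit and Ano1 mark them. In RNA from whole tissue, fewer cells of a type and less RNA per cell cannot be told apart.

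Nearly the whole list stood higher in SHP-KO. With CPM compared library by library, 28 of the 30 genes had every SHP-KO library above every WT library, 1 (Ret) had every SHP-KO library below, and 1 (Kit) overlapped. Of the 14641 genes with at least 10 summed counts, 35.0% stood above in this way and 31.9% below. The minimum of 10 can be reached through 1 group, and 7 of the 30 had under 10 counts summed over WT. The count of 28 is therefore no support of its own. Summed over the 24 neuron genes, levels were 115, 117 and 126 CPM in SHP-KO libraries 1 to 3 and 34.5, 38.4 and 34.5 CPM in WT libraries 1 to 3.

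**Figure D1:**
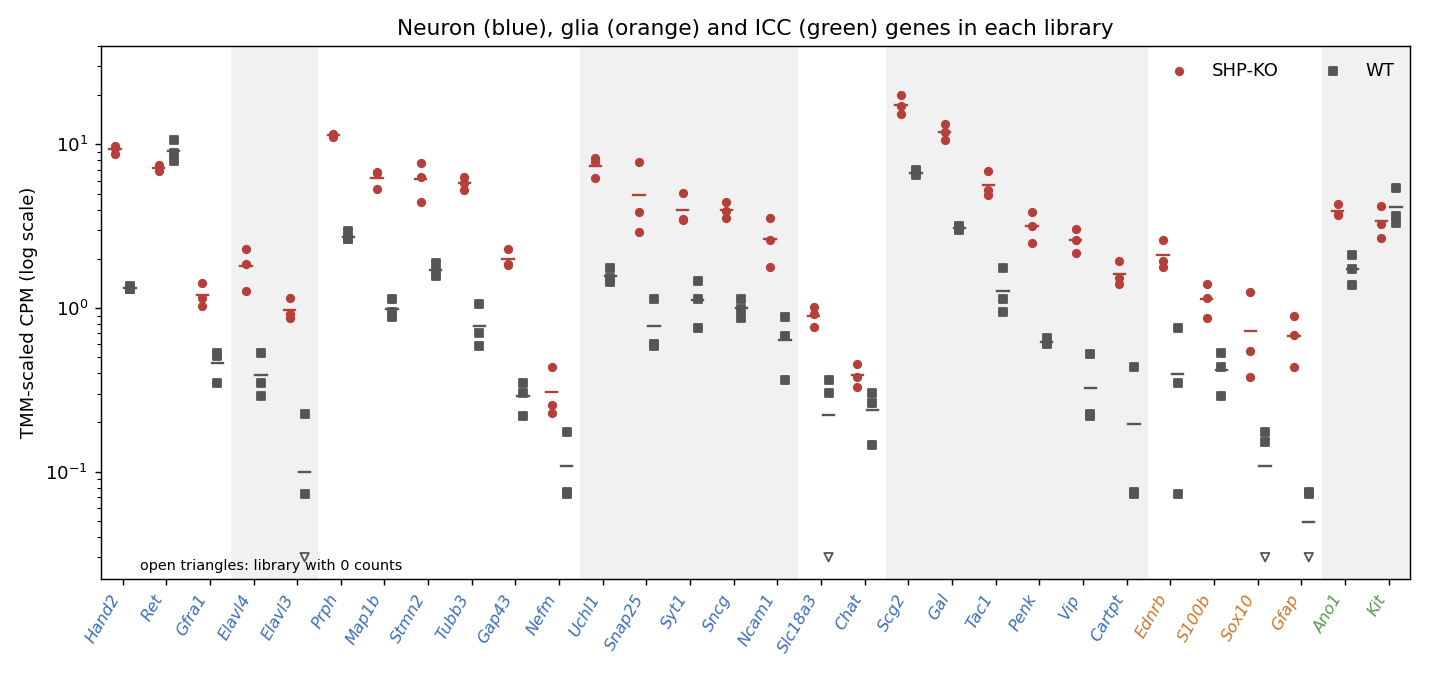
TMM-scaled CPM on a log axis of the 30 genes in each SHP-KO library (red circles) and each WT library (grey squares), with group means as short lines and libraries without a count as open triangles at the foot. Genes are grouped by role, and in 28 of 30 the SHP-KO points lie above all WT points, the exceptions being Ret and Kit.

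Of the 30 genes, 23 had enough counts for edgeR's quasi-likelihood test, in which 21 were called higher in SHP-KO, 1 (Ret) lower, and 1 (Kit) did not pass. A call means a Benjamini-Hochberg adjusted p under 0.05 over all 12106 tested genes, of which 70.6% were called, 35.2% higher and 35.4% lower. The count filter takes a gene that is high in 1 group only: 8 of the 23 were above its level of 0.973 CPM in no WT library, 6 in 1 or 2 WT libraries and 9 in all 3, so the count of 21 is no support of its own. With the filter replaced by 10 summed counts, which admits all 30 genes, 26 were called higher, 1 lower and 3 did not pass, against 31.6% called higher and 33.0% lower of 14641 genes. That sum can also be reached through 1 group, and 7 of the 30 had under 10 counts summed over WT. The count of 26 is therefore no support of its own either. In the authors' deposited table, which lists 27 of the 30, 25 had a positive log2 fold change with an adjusted p under 0.05 and none a negative one, where 34.6% of its 12939 genes passed, 19.0% upward and 15.6% downward.

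The median log2 fold change was 2.17 for the 20 neuron genes tested, beside -0.01 for all tested genes. Ednrb, the only glia gene tested, was at 2.41. The median of the ICC pair was 0.45, with Ano1 at 1.18 and Kit at -0.29. These medians describe the lists, and no test was made between the classes.

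**Figure D2:**
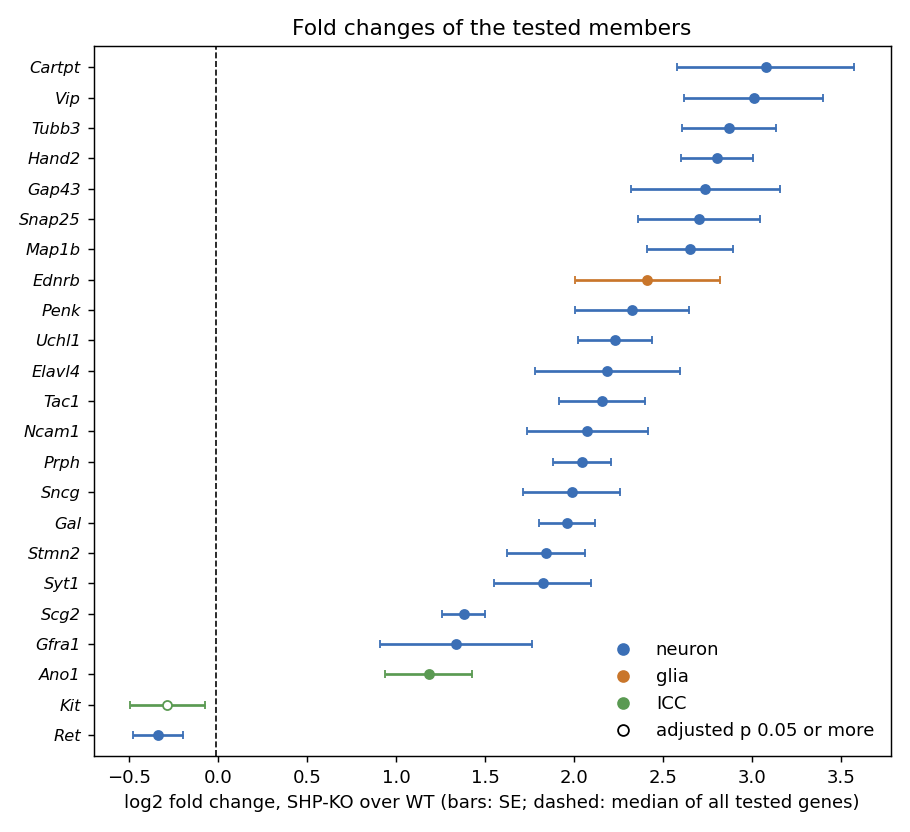
Log2 fold change, SHP-KO over WT, of the 23 tested genes with its standard error, for neuron (blue), glia (orange) and ICC (green) genes; the open point did not pass and the dashed line is the median of all tested genes. Cartpt and Vip lie highest at 3.08 and 3.01, and Ret and Kit lie below 0.

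Among regulators of neuron identity, Hand2 had the fourth largest rise of the 23 tested genes. It encodes a basic helix-loop-helix transcription factor needed for enteric neurons to mature, and is placed at 59799780 to 59803314 of chromosome 8 (mm9), in 2 exons. Hand2 had 9.53, 9.83 and 8.70 CPM in SHP-KO libraries 1 to 3 and 1.31, 1.31 and 1.36 CPM in WT libraries 1 to 3. The groups lay far apart and were tight within themselves, and the difference was called (log2 2.80, SE 0.20, adjusted p 1.1e-22, edgeR). Hand2 is also transcribed in mesenchymal cells of the gut wall.

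The Hu proteins Elavl3 and Elavl4 bind and stabilise mRNAs in neurons and serve as pan-neuronal markers. Elavl4 was at 1.27, 1.86 and 2.29 CPM in SHP-KO and 0.292, 0.350 and 0.528 CPM in WT (log2 2.19, SE 0.41, adjusted p 1.6e-06, edgeR). Elavl3 was too sparse for the test, with 9, 8 and 8 counts in SHP-KO and 1, 0 and 3 in WT. Its ratio of summed counts, scaled for library size, was 9.31, with a 95% counting interval of 3.22 to 36.8. Such intervals cover counting error only.

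The 5 tested cytoskeleton genes of neurons were all called higher, where 35.2% of all tested genes were. Tubb3, the neuron-specific beta-tubulin on chromosome 8 (125935464 to 125945910, mm9), had 6.36, 5.24 and 5.84 CPM in SHP-KO and 0.584, 0.701 and 1.06 CPM in WT (log2 2.87, SE 0.26, adjusted p 5.4e-17, edgeR). Prph, the intermediate filament peripherin of peripheral neurons, averaged 11.3 ± 0.28 CPM in SHP-KO and 2.73 ± 0.18 CPM in WT (SD, n = 3 each; log2 2.05). Map1b, a microtubule-binding protein of growing axons, averaged 6.25 ± 0.79 and 0.985 ± 0.13 CPM in SHP-KO and WT (log2 2.65).

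Gap43 and Stmn2, both of axon growth, were called as well. Gap43, a growth cone protein, had 18, 17 and 16 counts in SHP-KO and 3, 4 and 4 in WT (log2 2.74, SE 0.42, adjusted p 1.5e-08, edgeR). Stmn2, which destabilises microtubules, ranged from 4.45 to 7.67 CPM in SHP-KO and from 1.58 to 1.90 CPM in WT (log2 1.84). For Nefm, a neurofilament subunit, 8 counts in SHP-KO against 4 in WT gave a ratio of 2.98 (counting interval 0.798 to 13.5), so that no difference could be detected at this depth. Of the exon bases of Nefm, 33.3% are shared with A230070E04Rik, and reads there could not be assigned to either gene.

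Genes of the synapse and the neuron body were called higher in each of 5 cases, where 35.2% of all tested genes were. Ncam1 was above the count filter's level in 0 WT libraries and Snap25 in 1, so this count is no support of its own. Uchl1, the ubiquitin hydrolase known as PGP9.5, was at 8.26, 6.23 and 7.78 CPM in SHP-KO and 1.53, 1.75 and 1.43 CPM in WT (log2 2.23, SE 0.21, adjusted p 1.6e-16, edgeR). Snap25, a component of the complex that fuses synaptic vesicles, was uneven within SHP-KO, at 2.92, 7.87 and 3.89 CPM, against 0.584, 1.14 and 0.604 CPM in WT. Even its lowest SHP-KO library lay above the highest WT library (log2 2.70, SE 0.34), and leaving out SHP-KO replicate 2 gave log2 2.16.

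Syt1, the calcium sensor of transmitter release, was at log2 1.82, Sncg, the gamma-synuclein of peripheral neurons, at 1.99, and Ncam1, a neural adhesion molecule, at 2.07. Sncg is also abundant in fat, and 3 of 3 tested adipocyte markers rose in the same libraries. The whole adipocyte list summed to between 22.8 and 26.8 CPM in SHP-KO and between 2.10 and 3.21 CPM in WT, with none of its 7 genes at 0 in every library, and its part in the level of Sncg was not tested. Uchl1, Snap25, Syt1 and Scg2 are also transcribed in enteroendocrine cells, whose 17 markers summed to between 729 and 740 CPM in SHP-KO and between 337 and 348 CPM in WT. Of the 15 enteroendocrine markers tested 13 rose, 1 fell and 1 did not pass, and their part in these neuron genes was not tested either. Beside the counts of both lists, 35.2% of all tested genes were called higher and 35.4% lower.

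Transmitter genes of the main motor neurons were barely sampled. Chat, which makes acetylcholine, had 3, 3 and 4 counts in SHP-KO and 2, 3 and 4 in WT, a ratio of 1.66 (counting interval 0.604 to 4.60), and no difference was detectable at this depth. Slc18a3, the vesicular acetylcholine transporter, is encoded within the Chat locus and shares no exon base with it in these gene models. Slc18a3 had 8, 7 and 8 counts in SHP-KO and 5, 0 and 4 in WT, a ratio of 3.81 (1.70 to 9.35). Neither could be tested under the count filter. With 10 summed counts as the filter Slc18a3 was called (adjusted p 0.0048, edgeR) and Chat was not (adjusted p 0.44, edgeR). Slc18a3 reached that sum through SHP-KO, with 9 counts summed over WT, so its call is no support of its own.

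The 6 neuropeptide and granule genes were all called higher, where 35.2% of all tested genes were. Vip, Cartpt and Penk were above the count filter's level in no WT library, so this count is no support of its own. Vip encodes vasoactive intestinal peptide, which relaxes gut muscle and promotes secretion, and Cartpt encodes the CART peptides of myenteric neurons. Vip had 24, 24 and 19 counts in SHP-KO and 3, 6 and 3 in WT, or 3.05, 2.62 and 2.17 CPM against 0.219, 0.525 and 0.226 CPM (log2 3.01, SE 0.39, adjusted p 9.3e-11, edgeR). Cartpt had 11, 14 and 17 counts in SHP-KO and 1, 5 and 1 in WT (log2 3.08, SE 0.50, adjusted p 6.2e-08, edgeR). The size of the Cartpt difference rests on few WT reads, since leaving out WT replicate 2 gave log2 4.25.

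Tac1, the precursor of substance P and neurokinin A, which contract gut muscle, was at 6.86, 4.92 and 5.26 CPM in SHP-KO and 0.948, 1.75 and 1.13 CPM in WT (log2 2.16, SE 0.24). Penk, the precursor of the enkephalins, ranged from 2.51 to 3.89 CPM in SHP-KO and from 0.604 to 0.657 CPM in WT (log2 2.33, SE 0.32). Both peptides' groups stayed well apart. Gal, the precursor of galanin on chromosome 19 (3409917 to 3414457, mm9), was at 10.7, 11.9 and 13.3 CPM in SHP-KO and 2.99, 3.06 and 3.17 CPM in WT (log2 1.96, SE 0.16, adjusted p 5.5e-20, edgeR). Scg2, a granin that helps to form dense-core granules, had the highest mean CPM of the list in SHP-KO, at 17.2, 15.4 and 20.03 CPM in SHP-KO and 6.93, 6.74 and 6.49 CPM in WT (log2 1.38, SE 0.12, adjusted p 6.8e-18, edgeR).

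Promoters of 4 of the 6 peptide and granule genes are shown, and those of Cartpt and Penk are not. All 6 genes were called in the same direction, so the calls do not set these 4 apart. Peptide genes are textbook targets of cAMP signalling through the cAMP response element (CRE). Each run is the 250 bases before the start in RefSeq's table (GRCm38.p6, on the gene's own strand), for Vip chr10:5638968-5639217 (+), for Tac1 chr6:7554811-7555060 (+), for Gal chr19:3414545-3414794 (-) and for Scg2 chr1:79440027-79440276 (-). Capitals mark the CRE (TGACGTCA), its half-site (TGACG, or CGTCA on the other strand), which the full CRE contains, and the TATA box (TATAAA, or TTTATA on the other strand).
Vip promoter: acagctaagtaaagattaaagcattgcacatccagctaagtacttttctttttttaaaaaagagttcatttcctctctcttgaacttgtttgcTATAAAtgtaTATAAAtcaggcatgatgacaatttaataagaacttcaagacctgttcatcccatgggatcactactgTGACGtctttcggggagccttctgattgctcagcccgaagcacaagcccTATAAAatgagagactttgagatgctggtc
Tac1 promoter: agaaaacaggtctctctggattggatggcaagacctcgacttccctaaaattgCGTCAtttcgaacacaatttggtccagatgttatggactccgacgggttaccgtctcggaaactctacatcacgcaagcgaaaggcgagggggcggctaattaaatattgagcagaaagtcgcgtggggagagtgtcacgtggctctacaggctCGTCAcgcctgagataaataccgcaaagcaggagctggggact
Gal promoter: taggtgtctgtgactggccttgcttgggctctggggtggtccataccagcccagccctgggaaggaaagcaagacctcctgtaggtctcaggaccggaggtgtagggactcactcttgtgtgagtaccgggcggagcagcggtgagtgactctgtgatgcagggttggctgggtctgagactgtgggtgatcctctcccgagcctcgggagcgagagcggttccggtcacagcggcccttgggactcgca
Scg2 promoter: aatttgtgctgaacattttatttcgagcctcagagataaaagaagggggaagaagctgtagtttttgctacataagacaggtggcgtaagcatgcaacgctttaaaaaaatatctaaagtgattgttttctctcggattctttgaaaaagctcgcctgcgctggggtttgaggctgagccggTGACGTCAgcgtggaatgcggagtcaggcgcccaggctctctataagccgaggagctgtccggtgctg
Scg2 held the full CRE, 68 to 61 bases before the start. Vip held a half-site from 79 to 75 bases before the start and a TATA box from 30 to 25 bases before it. Tac1 held 2 half-sites, and none of these letters stood in the Gal window. Of 32851 promoters in the table, 1.55% held the full CRE, 17.8% a half-site and 12.4% the TATA box in the same window. Among the 23 listed genes with an entry, 2 (Cartpt and Scg2) held the full CRE, 10 a half-site and 4 the TATA box. A gene was counted when any of its promoters matched, whereas the percentages count single promoters, so they are not directly comparable. These matches are descriptions of sequence and show no binding.

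Per kb of exon, which allows levels of different genes to be compared, Gal stood first in both groups, at 17.1 ± 1.86 CPM per kb in SHP-KO and 4.40 ± 0.13 CPM per kb in WT (SD, n = 3 each). Scg2 followed in both, at 7.05 ± 0.94 CPM per kb in SHP-KO and 2.70 ± 0.088 CPM per kb in WT. In SHP-KO the next places went to Uchl1 (6.47 ± 0.93 CPM per kb), Prph (6.08 ± 0.15), Tac1 (5.49 ± 1.00) and Sncg (5.43 ± 0.62), and from Scg2 to Sncg no gene differed from its neighbour in that order beyond their spread. The lowest were Nefm, at 0.0949 ± 0.035 CPM per kb in SHP-KO, and Gfap, at 0.0122 ± 0.011 CPM per kb in WT. Ret stood fifteenth of 30 in SHP-KO and sixth in WT, and Kit nineteenth in SHP-KO and ninth in WT.

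**Figure D3:**
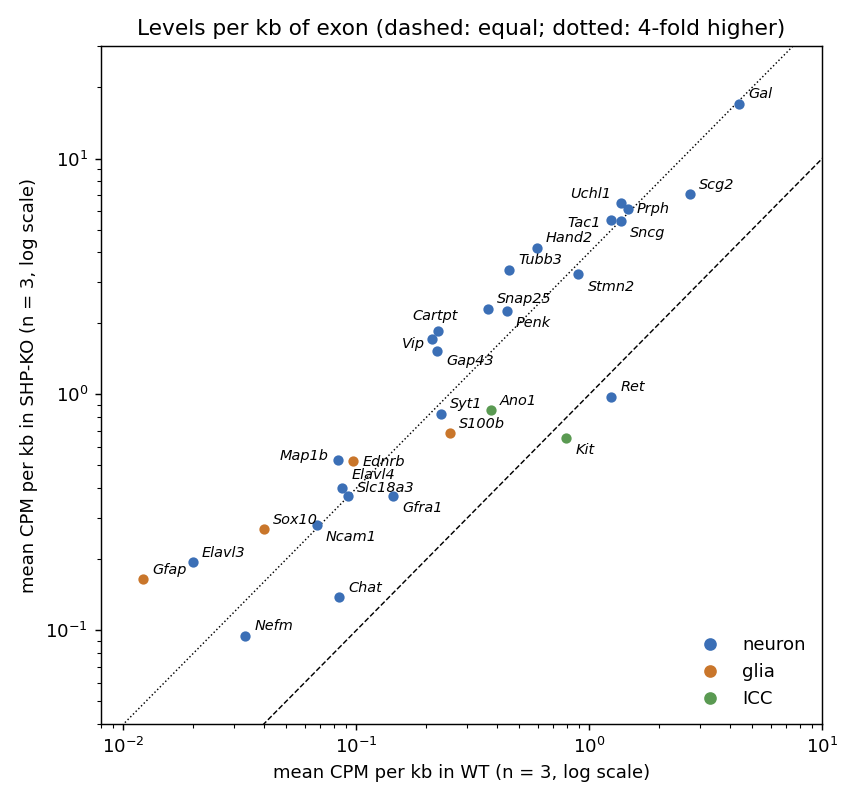
Mean CPM per kb of exon in SHP-KO (vertical, log axis) against WT (horizontal, log axis), 3 libraries each, for the 30 genes coloured by class; dashed line, equal levels; dotted line, 4-fold higher in SHP-KO. Most genes lie near the dotted line, Gal highest at 17.1 and 4.40 CPM per kb, and Ret and Kit lie just below the dashed line.

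Ret went against the rest of the neuron list. It encodes the receptor tyrosine kinase through which GDNF family ligands act on neural crest cells of the gut, and it needs a GFR-alpha co-receptor to bind them. Its 19 exon intervals span 118101766 to 118147762 of chromosome 6 (mm9). It had 57, 63 and 65 counts in SHP-KO and 121, 122 and 105 in WT, or 7.24, 6.88 and 7.44 CPM in SHP-KO and 8.83, 10.7 and 7.93 CPM in WT. The groups did not overlap but lay close together, and SHP-KO was called lower (log2 -0.34, SE 0.14, adjusted p 0.029, edgeR). That call was lost with DESeq2 (adjusted p 0.11), with an assumed coefficient of variation of 0.2 (adjusted p 0.36, edgeR exact test), without SHP-KO replicate 2 (adjusted p 0.087, edgeR) and without WT replicate 2 (adjusted p 0.18, edgeR).

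Gfra1, the co-receptor through which GDNF binds Ret, moved the other way. It had 9, 13 and 9 counts in SHP-KO and 7, 4 and 7 in WT (log2 1.34, SE 0.43, adjusted p 0.0040, edgeR), and 3.13% of its exon bases are shared with Gm10007.

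Ligands of these receptors are made mostly outside neurons. Gdnf was nearly unsampled, with 9 counts in SHP-KO and 5 in WT. Nrtn, neurturin, another ligand of the Ret family, was called higher (log2 1.31, SE 0.34, adjusted p 0.00040, edgeR). Among 28 ligands and partner receptors that were listed, 12 could be tested, of which 6 rose, 3 fell and 3 did not pass. Shares over all tested genes were 35.2% called higher and 35.4% lower. The median of the 12 was log2 0.07.

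Glia genes stood higher in SHP-KO but were close to the limit of detection. Summed over the 4, they reached 4.45, 4.48 and 5.04 CPM in SHP-KO libraries 1 to 3 and 0.438, 0.963 and 1.51 CPM in WT libraries 1 to 3. Ednrb, the endothelin receptor B that neural crest progenitors need to colonise the gut, had 14, 24 and 17 counts in SHP-KO and 1, 4 and 10 in WT. WT libraries were far apart for Ednrb, and its difference (log2 2.41, SE 0.41, adjusted p 2.0e-07, edgeR) came to log2 3.33 once WT replicate 3 was left out. Ednrb is found in endothelium too, where 3 of 5 tested markers rose, 1 (Tie1) fell and 1 (Pecam1) did not pass, and the 8 markers summed to between 16.1 and 17.5 CPM in SHP-KO and between 11.03 and 12.8 CPM in WT. Beside these endothelial counts, 35.2% of all tested genes were called higher and 35.4% lower. No endothelial marker was at 0 in all libraries, and the part of that tissue in Ednrb was not tested.

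The other glia genes were too sparse for the test. Sox10, a transcription factor of neural crest and glia, had 3, 5 and 11 counts in SHP-KO and 0, 2 and 2 in WT, a ratio of 7.08 (counting interval 2.35 to 28.6). S100b, a calcium-binding protein of glia, had 11, 8 and 10 counts in SHP-KO and 4, 5 and 7 in WT, a ratio of 2.70 (1.42 to 5.32). For Gfap, the glial intermediate filament, 7, 4 and 6 counts in SHP-KO and 1, 0 and 1 in WT gave a ratio of 12.7 (3.01 to 113). In each case the CPM of the groups did not overlap. Under the filter of 10 summed counts the 3 were called, with adjusted p of 0.0012 for Sox10, 0.0096 for S100b and 0.00037 for Gfap (edgeR). Sox10 and Gfap reached that sum through SHP-KO, with 4 and 2 counts summed over WT, so their calls are no support of their own.

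The 2 ICC genes parted. Ano1, the calcium-activated chloride channel that carries the slow-wave current, had 34, 34 and 33 counts in SHP-KO and 19, 24 and 23 in WT, or 4.32, 3.71 and 3.78 CPM in SHP-KO and 1.39, 2.10 and 1.74 CPM in WT. Its groups did not overlap (log2 1.18, SE 0.24, adjusted p 1.3e-05, edgeR), and it lies on chromosome 7 from 151774454 to 151924497 (mm9). Kit, the receptor tyrosine kinase on which ICC depend, had 21, 30 and 37 counts in SHP-KO and 50, 38 and 72 in WT, or 2.67, 3.28 and 4.23 CPM in SHP-KO and 3.65, 3.33 and 5.44 CPM in WT. Its groups overlapped and the difference did not pass (log2 -0.29, SE 0.21, adjusted p 0.22, edgeR). The summed counts of Kit gave a ratio of 0.819 (counting interval 0.624 to 1.07), which does not reach the 2.28-fold of Ano1.

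Kit is shared with mast cells. Of 9 mast cell markers none could be tested and 4 (Tpsab1, Mcpt4, Fcer1a and Ms4a2) were at 0 in every library, and the list summed to between 0.655 and 1.03 CPM in SHP-KO and between 0.175 and 0.511 CPM in WT. Kitl, the ligand of Kit, was at 10.8 CPM in SHP-KO and 13.96 CPM in WT (log2 -0.36, SE 0.12, adjusted p 0.0036, edgeR), a call lost without SHP-KO replicate 3 (adjusted p 0.066, edgeR) and with the assumed coefficient of variation of 0.2 (adjusted p 0.30, edgeR exact test). Among 6 other ICC genes only Cacna1h and Prkcq could be tested. Cacna1h, a T-type calcium channel, rose to 12.9 CPM in SHP-KO, against 2.14 CPM in WT (log2 2.59, SE 0.17, adjusted p 3.1e-25, edgeR), and Prkcq did not pass. Etv1, a transcription factor of ICC, had 28 counts in SHP-KO and 10 in WT.

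Receptors for the neuropeptides differed from one another. Galr2, a galanin receptor, was at 5.85, 4.04 and 3.66 CPM in SHP-KO and 0.438, 1.05 and 0.453 CPM in WT, so that receptor and ligand were both called higher (log2 2.81, SE 0.30, adjusted p 8.7e-14, edgeR). Vipr1, a receptor of vasoactive intestinal peptide that epithelium also carries, was at 240 CPM in SHP-KO and 220 CPM in WT. Its difference was small (log2 0.13, SE 0.034, adjusted p 0.00047, edgeR), and the call was lost without a count filter (adjusted p 0.072, edgeR) and with the assumed coefficient of variation of 0.2 (adjusted p 0.73, edgeR exact test).

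Most other receptors of the listed transmitters were sparse. Vipr2 had 10 counts in SHP-KO and 15 in WT. Chrm2, a muscarinic receptor of smooth muscle, had 24 counts in SHP-KO and 2 in WT, a ratio of 17.9 (counting interval 4.44 to 156). Chrm3, another muscarinic receptor, had 12, 2 and 1 counts in SHP-KO and 1, 1 and 2 in WT, and its groups overlapped. Oprk1, the kappa opioid receptor, did not pass, and Oprm1 had no count in any library. The tachykinin receptors Tacr1, Tacr2 and Tacr3 had 14, 2 and 10 counts in SHP-KO and 11, 0 and 1 in WT. Gucy1a3 and Gucy1b3, the subunits of the guanylate cyclase through which nitric oxide relaxes muscle, rose by log2 1.66 and 1.81.

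Endothelin ligands of Ednrb moved in opposite directions. Edn1 rose (log2 0.96, SE 0.16, adjusted p 2.8e-07, edgeR). Edn2 fell to 21.3 CPM in SHP-KO, against 42.4 CPM in WT (log2 -0.99, SE 0.075, adjusted p 2.8e-21, edgeR). Edn3, the ligand that acts on neural crest cells, was at 91.8, 88.7 and 98.7 CPM in SHP-KO and 118, 115 and 125 CPM in WT. The groups of Edn3 did not overlap (log2 -0.36, SE 0.045, adjusted p 1.7e-11, edgeR), though the call was lost with the assumed coefficient of variation of 0.2 (adjusted p 0.26, edgeR exact test).

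Other neuron genes, listed with earlier results of these data known, mostly had the same direction. Of 38 listed, 22 could be tested, of which 19 rose, 1 fell and 2 did not pass. Of all tested genes, 35.2% were called higher and 35.4% lower. Here too the count filter takes a gene that is high in 1 group only, so the count of 19 is no support of its own. The median of the 22 was log2 2.09. Scn3a, a neuronal sodium channel, showed the largest rise, with 43 counts in SHP-KO and 5 in WT (log2 3.56, SE 0.53, adjusted p 8.0e-09, edgeR), and was at log2 5.09 without WT replicate 2. L1cam, an adhesion molecule of axons, was the gene that fell, to 7.90 CPM in SHP-KO, against 13.99 CPM in WT (log2 -0.82, SE 0.12, adjusted p 1.1e-08, edgeR).

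Other glia genes did not move as a group. Of 16 listed, 6 could be tested, of which 2 (Ngfr and Scn7a) rose, 1 (Erbb3) fell and 3 did not pass. All tested genes had shares of 35.2% called higher and 35.4% lower. Ngfr, the p75 neurotrophin receptor, was at 2.67, 3.50 and 3.43 CPM in SHP-KO and 0.948, 0.350 and 0.679 CPM in WT (log2 2.23, SE 0.32, adjusted p 1.6e-09, edgeR). Erbb3, the neuregulin receptor of glia that gut epithelium also transcribes, was at 84.9 CPM in SHP-KO and 223 CPM in WT (log2 -1.39, SE 0.040, adjusted p 4.3e-50, edgeR).

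Smooth muscle, the tissue in which the plexuses lie, was higher in SHP-KO too. All 14 smooth muscle markers tested of 15 listed rose, where 35.2% of all tested genes were called higher. Their median was log2 2.15 beside 2.17 for the neuron genes. Summed, the 15 markers reached between 1664 and 1693 CPM in SHP-KO and between 439.6 and 445.8 CPM in WT, and none was at 0 in all libraries. Per 100 CPM of summed smooth muscle markers, the 24 neuron genes made up 6.91, 6.89 and 7.52 CPM in SHP-KO libraries and 7.81, 8.62 and 7.85 CPM in WT libraries.

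Ret alone made up 0.429 ± 0.019 CPM of this in SHP-KO and 2.07 ± 0.30 CPM in WT. Without Ret, a choice made after its values were seen, the other 23 neuron genes made up 6.48, 6.48 and 7.07 CPM per 100 CPM of smooth muscle markers in SHP-KO and 5.81, 6.23 and 6.04 CPM in WT. On the same measure the glia genes made up 0.277 ± 0.020 CPM in SHP-KO and 0.220 ± 0.12 CPM in WT (SD, n = 3 each), so that WT values spread around those of SHP-KO. Ano1 made up 0.235 ± 0.022 CPM in SHP-KO and 0.393 ± 0.079 CPM in WT, and Kit 0.202 ± 0.047 CPM in SHP-KO and 0.936 ± 0.26 CPM in WT. The part of the smooth muscle difference in the neuron, glia and ICC values was not tested.

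**Figure D4:**
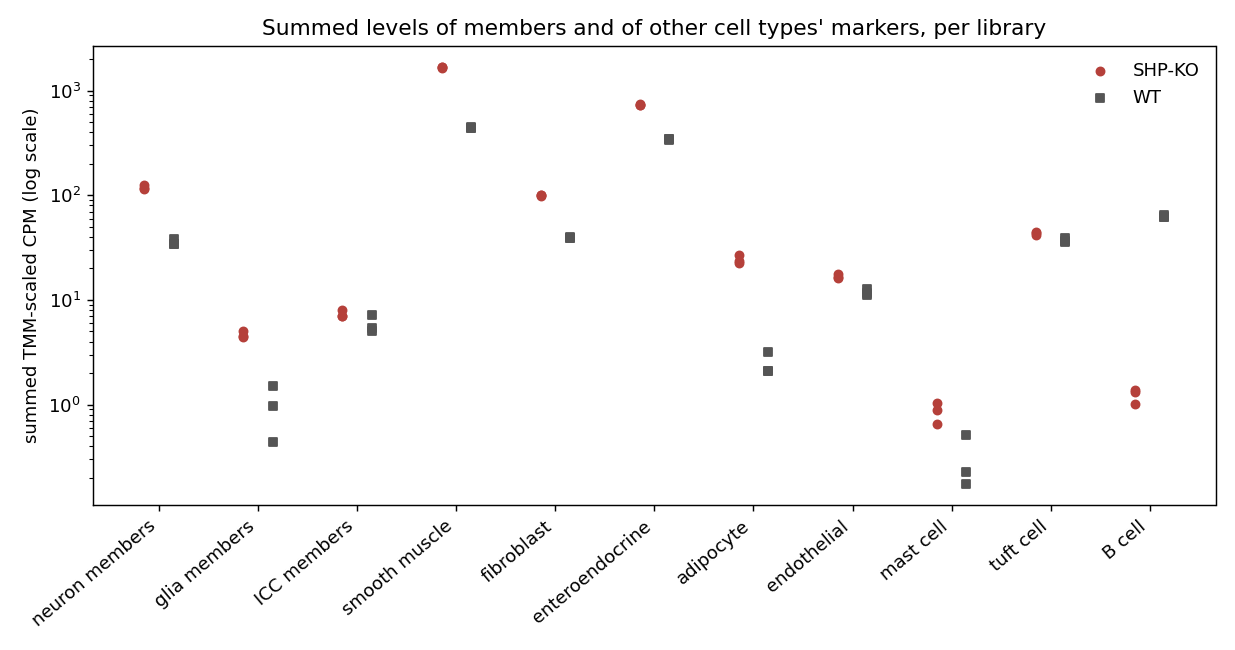
Summed TMM-scaled CPM on a log axis of the neuron, glia and ICC genes and of 8 lists of markers of other cell types, in each SHP-KO library (red circles) and each WT library (grey squares). Neuron genes (115 to 126 against 34.5 to 38.4 CPM) and smooth muscle markers (1664 to 1693 against 439.6 to 445.8 CPM) lie higher in SHP-KO, and B cell markers (1.02 to 1.37 against 61.4 to 65.2 CPM) lie lower.

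Fibroblast markers rose in 8 of 10 tested cases and the other 2 (Dcn and Bgn) did not pass, with sums between 98.5 and 101 CPM in SHP-KO and between 39.4 and 39.7 CPM in WT and no marker at 0 in all libraries. Tuft cells, which in mouse intestine also transcribe Chat, gave 2 higher, 3 lower and 3 not passing of 8 tested markers. Tuft cell sums lay between 42.0 and 44.1 CPM in SHP-KO and between 35.6 and 39.1 CPM in WT. Beside the fibroblast and tuft cell counts, 35.2% of all tested genes were called higher and 35.4% lower. Enterocyte markers, which check the labelled tissue, summed to between 69611 and 70659 CPM in SHP-KO and between 45426 and 47808 CPM in WT.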

How the data were processed

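RNA from jejunum and ileum of 3 SHP-KO and 3 WT samples was sequenced with a read length of 100 bp, per the labels. The deposited values are raw read counts for each gene, which featureCounts 1.5.2 summed over exons without regard to strand, per the file headers, so reads of antisense partners cannot be told apart. STAR 2.6.0c, Trimmomatic 0.38, FastQC 0.11.5 and the mm9 build are listed in the submitters' processing notes. In the authors' deposited comparison, each gene has a log2 fold change, a p-value and an FDR; the settings of that test were not given in the sources used here.

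Counts passing filterByExpr (minimum count 10) were scaled by TMM and tested with edgeR 4.0.16 (robust quasi-likelihood) in R 4.3.3, all 6 libraries together; SE is the log2 fold change divided by the root of F. Benjamini-Hochberg values cover 12106 genes. Ratios of summed counts have exact 95% intervals. Alternatives were DESeq2 1.42.0 (test and size factors), limma-voom (limma 3.58.1), other filters, no scaling, no robust estimation, the exact test with a coefficient of variation of 0.2, the replicate number as a block and leaving out each library. The members and lists were chosen with earlier results of these data known. Named were all 30 kept genes, Nr0b2, the largest called rise and fall of each neuron, glia, ICC and ligand list, and receptors or ligands of the members; Etv1, Scn7a, Gucy1a3, Gucy1b3, Edn1, Prkcq, Tie1, Pecam1, Dcn and Bgn were picked after their values were seen. Some genes of the wider lists, and a list of lymphoid markers other than B cell markers, are not reported here. Gene coordinates are mm9, as in the files; promoters are GRCm38.p6.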

Additional observations from a re-analysis of the deposited data

How the results depend on the processing

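Of 368 refits of single genes (23 tested genes, 16 alternatives), 364 kept their direction and side of the threshold and 4, those of Ret given with its values, kept the direction and lost the call; none reversed. Each of the 21 genes called higher stayed so in all 16. Genes called lower numbered 0, in place of 1, with DESeq2 and with the exact test at a coefficient of variation of 0.2, and between 0 and 1 when each library was left out. Over all genes that exact test called 4041, 2164 higher and 1877 lower, in place of 8543; it changes both the test and the spread, and the cause was not tested. The neuron median stayed between 2.04 and 2.30, the glia median between 1.88 and 3.33 and the ICC median between 0.32 and 0.57. Same-numbered libraries did not deviate together (r from -0.0064 to 0.021 over genes, highest with the own number for 2 of 3 SHP-KO libraries). Much of such deviation is counting error, so these values cannot decide whether the numbers pair libraries. With the replicate block 22 of the 23 genes and 8573 of all genes were called, and no gene of the list changed its call. Depth limits the glia genes, Chat, Slc18a3, Nefm and Elavl3 most.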
